A study of Mus musculus with 2 samples.

Results

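Retinoic acid is made inside cells from vitamin A, and 9 genes that make, carry, take up, bind or break it down were read here: Aldh1a1, Aldh1a2, Aldh1a3, Rdh10, Rbp4, Stra6, Crabp1, Crabp2 and Cyp26b1. They were taken by name from the 32287 features of 1 droplet library, and all 9 were found. The library came from the tibialis anterior and gastrocnemius of 2-month-old male S100GFPtg mice labelled WT (without the Sod1 deletion of other mice in the study), whose sciatic nerve had been crushed 7 days before the muscle was taken (7 dpi). In these mice green fluorescent protein is driven by the S100B promoter and was used to mark Schwann cells, the glia of peripheral nerve. Viable cells (propidium iodide negative) were sorted as GFP+ or GFP-, and the values below are those of the GFP+ sort. The study's methods speak of pooled male animals and its series description of 1 crushed mouse, and how many animals contributed is therefore uncertain. All cells carried the transgene and came from injured muscle, and the library therefore gives no value for intact muscle and no replicate.

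Retinol reaches tissues in the blood bound to retinol binding protein 4, the product of Rbp4, and can enter cells through the membrane receptor STRA6. Inside the cell it is oxidised first to retinal, mainly by RDH10, and then irreversibly to retinoic acid by the retinal dehydrogenases ALDH1A1, ALDH1A2 and ALDH1A3. CRABP1 and CRABP2 bind retinoic acid in the cytosol, CYP26 enzymes such as CYP26B1 degrade it, and nuclear receptors of the RAR and RXR families carry its effect to target genes. In the immune system, dendritic cells that express Aldh1a2 are known as a source of retinoic acid for lymphocytes.

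The matrix held 170648616 unique molecular identifiers (UMIs, 1 per captured RNA molecule) in 36400 barcodes. Of these, 18528 had at least 2000 UMIs, over 200 genes and under 10% mitochondrial UMIs, with a median of 4363.5 UMIs. Barcodes were assigned to cell classes by a score from the UMIs of marker genes. By this score 13762 (74.3%) fell into 1 class, 2698 scored for more than 1 lineage and 2068 stayed below the lower limit of the score. Monocytes and macrophages made up 8669 of the gated barcodes and fibroblasts 3182, whereas only 103 passed the Schwann cell gate. Of the fibroblasts, 1267 scored for a single subtype, 385 scored for several and 1530 stayed below the lower limit for each. Every marker of the 20 classes described was at least 1.5 times higher in its class than in the other barcodes, although the gates were built on these markers. The classes are ranges of a marker score and not clusters, and 1152 gated barcodes (8.37%) lay just above the lower limit of the score. A total of 372 barcode sequences also occurred in the GFP- library, 126 of them among the gated barcodes, and all 72 log2 ratios of members stayed inside their intervals when these were left out. Levels are given as UMIs of a gene per 1000000 UMIs of the class (CPM), and every interval in the text is an exact 95% interval that covers counting error only, not the spread between animals.

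The 9 genes together held 14971 UMIs in gated barcodes, and most of these were in stromal cells. Fibroblasts, 23.1% of the gated barcodes, held 2860 of the 3010 Rbp4 UMIs, 90.7% of those of Stra6, 83.6% of Aldh1a2, 82.4% of Aldh1a3, 77.6% of Cyp26b1, 71.6% of Aldh1a1, 62.1% of Rdh10 and 55.9% of Crabp2. Crabp1 was the exception, with 53.1% of its UMIs in tenocytes, the fibroblasts of tendon, which were 2.73% of the barcodes, and 42.9% in fibroblasts. When all fibroblasts were set against all monocytes and macrophages, 9 of the 9 genes were at least 2-fold higher with an interval above no change, the rule used for a call throughout. Of these, Stra6 and Crabp1, with 1 and 11 UMIs in monocytes and macrophages, reached the minimum of 50 UMIs only through fibroblasts, and nothing is read from their part in the count. Over all 15829 genes with at least 50 UMIs on both sides together, 25.3% were called higher in fibroblasts and 19.2% lower. The median log2 ratio was 4.58 for the 9 genes, with Stra6 and Crabp1 among them, and 0.09 for all genes compared. The 9 genes were chosen with earlier results of these data known. Rdh10 had the smallest ratio of the 9, at 2.69 (2.56 to 2.82), and Crabp2 stood close to it at 2.70 (2.21 to 3.21). The ratio was 6.46 (6.15 to 6.78) for Rbp4, 5.24 (5.02 to 5.47) for Aldh1a1, 4.58 (4.41 to 4.76) for Aldh1a2 and 7.91 (5.39 to 13.23) for Stra6, the last from 88 against 1 UMI.

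**Figure D1:**
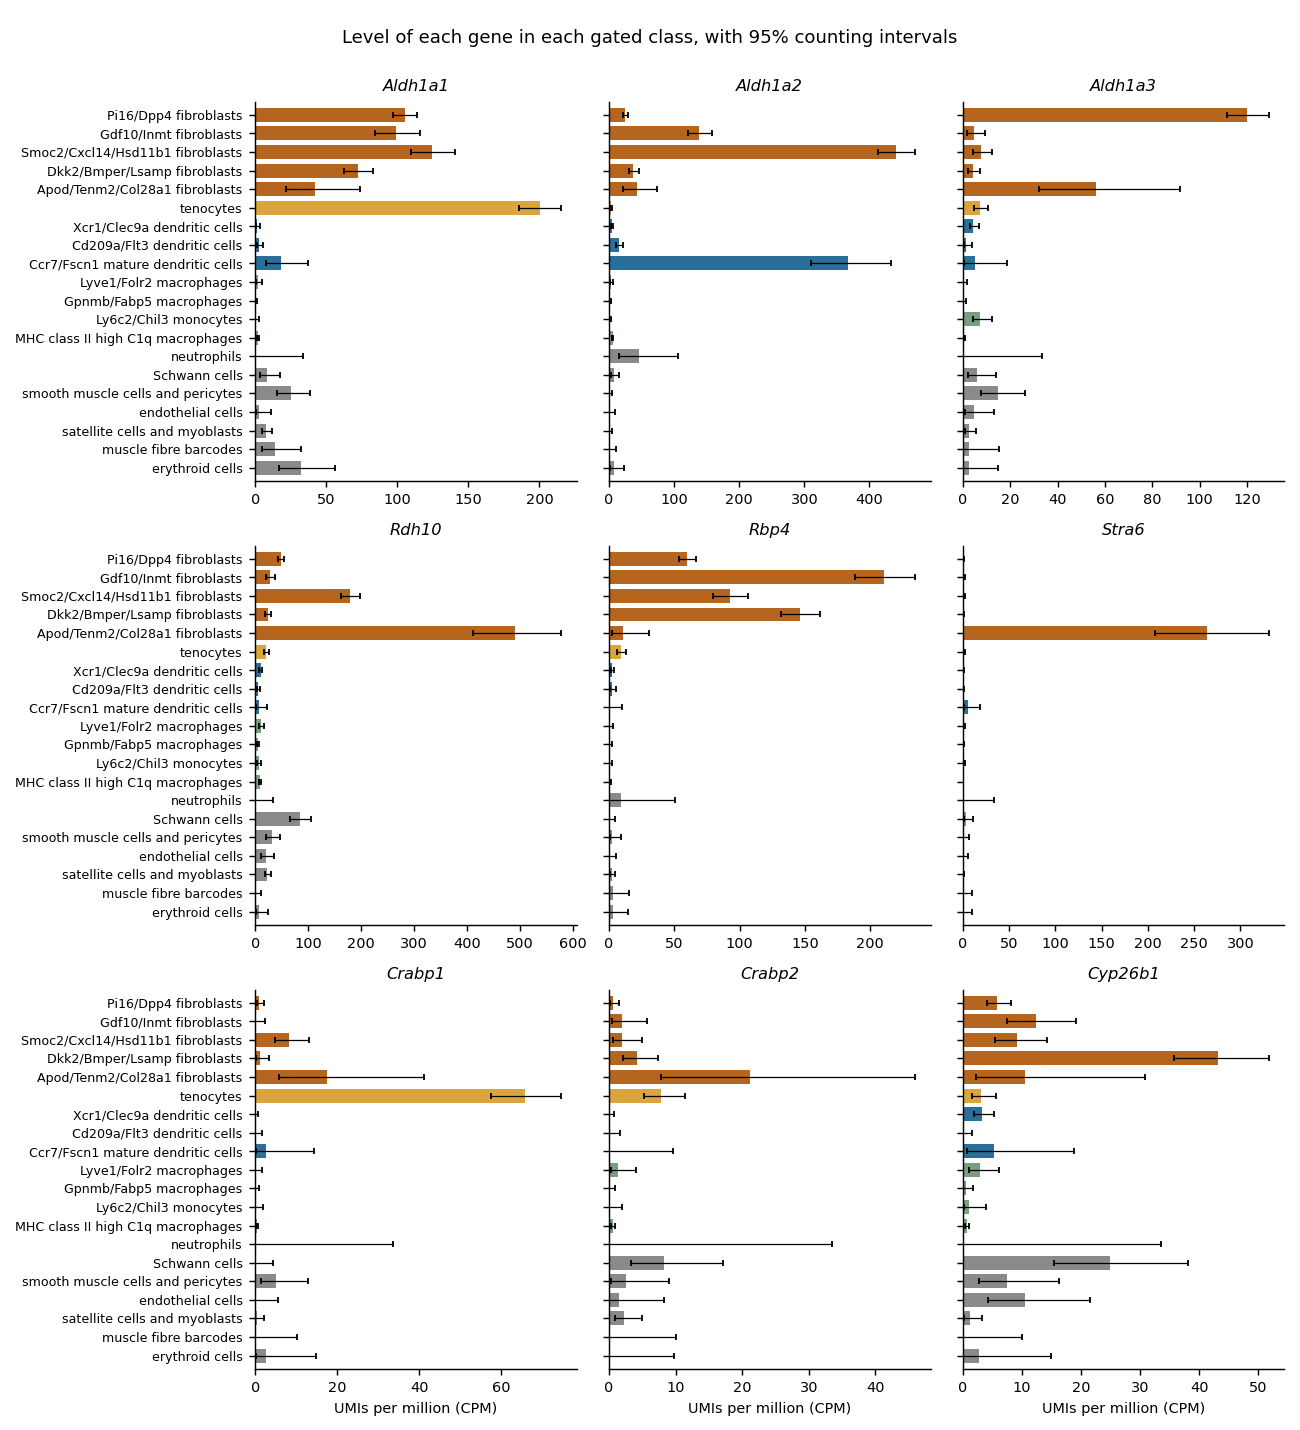
Level of the 9 genes (horizontal axes, CPM, a separate linear scale from 0 for each gene) in the 20 gated classes of the GFP+ library. Bars are pooled levels, lines are 95% counting intervals, and colours mark fibroblasts (brown), tenocytes (yellow), dendritic cells (blue), monocytes and macrophages (green) and other classes (grey). Aldh1a2 has long bars in Smoc2/Cxcl14/Hsd11b1 fibroblasts and in mature dendritic cells, Aldh1a1 and Crabp1 peak in tenocytes, and Stra6 stands out in 1 class of 36 barcodes.

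Rdh10, the retinol dehydrogenase of the first step (chromosome 1, 16105882 to 16132550, GRCm38.p6), had 3355 UMIs in 1784 of the kept barcodes. Its level was 489.6 CPM (412 to 578) in Apod/Tenm2/Col28a1 fibroblasts, 179 CPM (161 to 198) in Smoc2/Cxcl14/Hsd11b1 fibroblasts and 84.2 CPM (65.7 to 106) in Schwann cells. The first and second of these stood apart from each other and from the rest by their intervals. Pi16/Dpp4 fibroblasts followed with 48.4 CPM (42.9 to 54.4), and from there each class overlapped the next. Gdf10/Inmt fibroblasts had 27.2 CPM, Dkk2/Bmper/Lsamp fibroblasts 23.3, satellite cells and myoblasts 23.0, tenocytes 21.1 and endothelial cells 20.8. The levels in the dendritic, monocyte and macrophage classes lay between 4.54 and 11.2 CPM, and how much of such low levels free RNA in the droplets gave was not estimated. No UMI was found in neutrophils, which are also myeloid, or in muscle fibre barcodes, where 3 UMIs would have given 27.3 and 8.19 CPM.

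Single barcodes weighed heavily on some of these Rdh10 levels. In the Schwann cell class 1 barcode held 32 of the 71 UMIs, and the level was 47.6 CPM (33.9 to 65.1) without it, which overlapped that of Pi16/Dpp4 fibroblasts, and 28.8 CPM (18.0 to 43.6) without the 5 top barcodes. In the Apod/Tenm2/Col28a1 class 1 barcode held 51 of 139 UMIs, and the other 35 barcodes gave 338 CPM (271 to 416), still the highest of the 20 classes. Smooth muscle cells and pericytes went from 32.5 to 10.4 CPM without 1 barcode that held 18 of 26 UMIs. Among barcodes thinned to 2000 UMIs, 38.9% of the Apod/Tenm2/Col28a1 fibroblasts (23.1 to 56.5), 20.7% of the Smoc2/Cxcl14/Hsd11b1 fibroblasts (15.7 to 26.5) and 10.7% of the Schwann cells (5.45 to 18.3) had an Rdh10 UMI. The same share was 1.87% (1.39 to 2.45) in MHC class II high C1q macrophages. Without thinning the 4 values were 52.8%, 43.1%, 21.4% and 6.34%, and the median UMIs per barcode were 3092, 4156, 7153 and 8212.5.

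Aldh1a1 (chromosome 19, 20492583 to 20643463) is a retinal dehydrogenase gene and had its highest level in tenocytes, 200.2 CPM (186 to 215). Smoc2/Cxcl14/Hsd11b1, Pi16/Dpp4 and Gdf10/Inmt fibroblasts formed a second tier of 125 CPM (109.9 to 141), 105 CPM (97.1 to 114) and 99.0 CPM (84.0 to 116), and neighbours in this tier overlapped. Dkk2/Bmper/Lsamp fibroblasts had 72.1 CPM (62.2 to 83.0) and Apod/Tenm2/Col28a1 fibroblasts 42.3 CPM (21.8 to 73.8), from 12 UMIs. Against the other 4 subtypes together, 4 of the 5 subtype ratios of Aldh1a1 were not called. Erythroid cells had 32.0 CPM (16.5 to 55.8) from 12 UMIs, smooth muscle cells and pericytes 25.0 CPM (15.3 to 38.6), and neutrophils none. In monocytes and macrophages the level differed with depth, at 0.70 CPM (0.51 to 0.93) in barcodes with at least 5000 UMIs and 13.5 CPM (11.3 to 16.0) in shallower ones. After thinning, 28.5% of tenocytes (23.9 to 33.3) and 1.14% of monocytes and macrophages (0.93 to 1.39) had a UMI, against 62.2% and 1.78% before, at median depths of 8514.5 and 7823 UMIs.

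Aldh1a2 (chromosome 9, 71215789 to 71296243) had a different distribution, with a peak in 1 fibroblast subtype and another in 1 kind of dendritic cell. The level was 441 CPM (413 to 470) in Smoc2/Cxcl14/Hsd11b1 fibroblasts and 368 CPM (309.7 to 433) in Ccr7/Fscn1 mature dendritic cells, and these intervals overlapped. The UMIs of the mature dendritic cells were the more concentrated, with 89 of 142 (62.7%) in 5 barcodes and 27 in 1, against 16.1% in the 5 top Smoc2/Cxcl14/Hsd11b1 barcodes. Without the 5 top barcodes of each class the levels were 174 CPM (130.3 to 228) in mature dendritic cells and 388 CPM (361 to 417) in Smoc2/Cxcl14/Hsd11b1 fibroblasts, which no longer overlapped. Gdf10/Inmt fibroblasts came next with 139 CPM (121 to 158), clear of both, and had 90.2 CPM (75.3 to 107) without their 5 top barcodes. The 385 fibroblasts with markers of several subtypes, which are not among the 20 classes, lay above them at 171 CPM (157.7 to 186). Neutrophils had 45.5 CPM, but all 5 UMIs were in 1 barcode. Apod/Tenm2/Col28a1, Dkk2/Bmper/Lsamp and Pi16/Dpp4 fibroblasts had 42.3, 37.2 and 24.5 CPM. The UMIs of the first were in 4 barcodes, and without the 5 top barcodes the 3 levels were 0, 20.8 and 14.8 CPM. In tenocytes Aldh1a2 was nearly absent, at 2.25 CPM (0.97 to 4.43) from 8 UMIs, although tenocytes had the highest level of Aldh1a1. The 4 monocyte and macrophage classes held 0.53 to 5.51 CPM, and smooth muscle cells and pericytes and muscle fibre barcodes had no UMI.

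The dendritic cells were compared with the monocytes and macrophages, the lineage most like them. Aldh1a2 had 25.2 CPM in all 766 dendritic barcodes and 4.19 CPM in the 8669 monocytes and macrophages, a log2 ratio of 2.59 (2.33 to 2.85). Mature dendritic cells accounted for 142 of the 199 dendritic UMIs with only 74 of the 766 barcodes. Within the lineage the levels were 4.05 CPM (2.51 to 6.19) in Xcr1/Clec9a cells, the type known for cross-presentation, 15.6 CPM (10.9 to 21.5) in Cd209a/Flt3 cells and 368 CPM in the mature cells, which express the lymph node homing receptor CCR7. Mature against other dendritic cells gave a log2 ratio of 5.60 (5.14 to 6.07), which was 4.94 and still called without the 5 top barcodes of each side, and of the 2 members with at least 50 UMIs in this comparison Aldh1a2 was called and the other was not. Among all 8576 genes compared there, 10.6% were called higher and 10.5% lower in the mature cells. Rdh10, the other member compared, had 7.77 CPM in mature and 8.80 CPM in other dendritic cells, with a log2 ratio of -0.18 (-2.49 to 1.43).

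The mature dendritic class was small and shallow, with a median of 2863 UMIs, and its barcodes held a median fibroblast marker level of 1284 CPM, against 72.4 and 0 CPM in the other dendritic classes. In the 20 mature barcodes without any fibroblast marker UMI, Aldh1a2 stood at 365 CPM (282 to 466) in 65 UMIs, and in the 54 others at 369.8 CPM (292 to 462) in 77 UMIs. These UMIs were in 9 and 18 barcodes, and the part of fibroblast transcripts in the level was not tested beyond this split. Aldh1a1 had 0 UMIs (0 to 20.7 CPM) in those 20 barcodes and 7 UMIs, or 33.6 CPM (13.5 to 69.3), in the 54 others, and these intervals overlapped. In the 18 mature barcodes with at least 5000 UMIs the Aldh1a2 level was 445 CPM (362 to 541), and in the 56 shallower ones it was 257.6 CPM (185 to 349), lower and clear of the first. The 27 mature barcodes with an Aldh1a2 UMI had a median of 16 UMIs of the mature dendritic markers and 4338 UMIs in all, and the 47 without had medians of 8 and 2541. After thinning, 27.0% of mature dendritic cells (17.4 to 38.6) had an Aldh1a2 UMI, compared with 3.93% (1.81 to 7.33) of Cd209a/Flt3 cells, 1.30% (0.48 to 2.80) of Xcr1/Clec9a cells, 1.32% (0.93 to 1.82) of MHC class II high C1q macrophages and 47.8% (41.3 to 54.5) of Smoc2/Cxcl14/Hsd11b1 fibroblasts. Before thinning these shares were 36.5%, 9.61%, 3.67%, 3.04% and 68.1%.

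Apart from that of Aldh1a2, the called ratios between dendritic cells and monocytes and macrophages rested on few UMIs. Of 7 members compared, 3 were called higher, where 8.92% of 14407 genes were, and 1, Crabp2, was counted as lower, where 21.7% were. Aldh1a3 had a log2 ratio of 1.33 (0.68 to 1.95), but 12 of its 28 dendritic UMIs were in 1 Xcr1/Clec9a barcode, and without the 5 barcodes with most UMIs on each side the ratio was 0.49 and not called. Cyp26b1 had a ratio of 1.06 (0.26 to 1.79) with 10 of 19 UMIs in 1 barcode, and its direction turned to -0.66 without the 5 top barcodes. Crabp2 had no UMI in dendritic cells and 50 in monocytes and macrophages. It was counted because its observed level was 0 with an interval clear of no change, but with 3 UMIs as the floor it was at least 1.76-fold lower, a bound short of the 2-fold limit, and it was not counted under 5 other settings. Aldh1a1, Rdh10 and Rbp4 were not called, with log2 ratios of 0.16 (-0.57 to 0.81), -0.15 (-0.52 to 0.21) and 0.93 (0.12 to 1.68). With the gates scored anew on barcodes with at least 5000 UMIs alone, Aldh1a1 was called higher, at 1.39. The classes then differed from the deep barcodes of the main gates, such as 1817 against 1869 MHC class II high C1q macrophages. Rbp4 was called higher, at 1.22, with Scrublet doublets removed.

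Aldh1a3 (chromosome 7, 66390892 to 66427477) was highest in Pi16/Dpp4 fibroblasts. It had 120.1 CPM (111 to 129) there, 56.4 CPM (32.2 to 91.5) in Apod/Tenm2/Col28a1 fibroblasts and 4.13 to 7.67 CPM in the other 3 subtypes. In the Apod/Tenm2/Col28a1 class 14 of the 16 UMIs were in 5 barcodes, and the level was 11.1 CPM (1.34 to 40.0) without them. Tenocytes had 7.30 CPM (4.77 to 10.7), and no other class exceeded 15.0 CPM, that of smooth muscle cells and pericytes, where 1 barcode held 11 of 12 UMIs. The 14 UMIs of Ly6c2/Chil3 monocytes were all in 1 barcode. A UMI was present in 45.6% of Pi16/Dpp4 fibroblasts at a median depth of 11248 UMIs. After thinning the share was 20.5% (17.0 to 24.3), compared with 0.43% (0.01 to 2.38) in Smoc2/Cxcl14/Hsd11b1 fibroblasts and 0.18% (0.06 to 0.43) in MHC class II high C1q macrophages.

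The make-up of the 3 retinal dehydrogenases therefore differed from class to class. Because each captured molecule counts once, whatever the length of its transcript, the UMIs of the 3 genes were also read as shares of their sum. Aldh1a1 was 95.4% (93.7 to 96.8) of the 747 UMIs in tenocytes and 63.6% (57.9 to 69.0) of the 302 in Dkk2/Bmper/Lsamp fibroblasts. Aldh1a2 was 76.9% (74.4 to 79.3) of the 1196 in Smoc2/Cxcl14/Hsd11b1 fibroblasts, 57.2% (52.0 to 62.3) of the 374 in Gdf10/Inmt fibroblasts and 142 (89.0% to 97.2%) of the 151 in mature dendritic cells. Pi16/Dpp4 fibroblasts were split between Aldh1a3 with 48.1% (45.5 to 50.7) and Aldh1a1 with 42.1% (39.6 to 44.7) of 1460 UMIs. In Apod/Tenm2/Col28a1 fibroblasts the 40 UMIs were shared as 12, 12 and 16, with wide intervals. Summed over the 3 genes, the level was 573 CPM (541 to 607) in Smoc2/Cxcl14/Hsd11b1 fibroblasts, 391 CPM (331 to 459) in mature dendritic cells, 249.8 CPM in Pi16/Dpp4 and 242 CPM in Gdf10/Inmt fibroblasts, 209.7 CPM in tenocytes and 113 CPM (101 to 127) in Dkk2/Bmper/Lsamp fibroblasts. In all monocytes and macrophages it was 7.98 CPM (7.36 to 8.65).

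**Figure D2:**
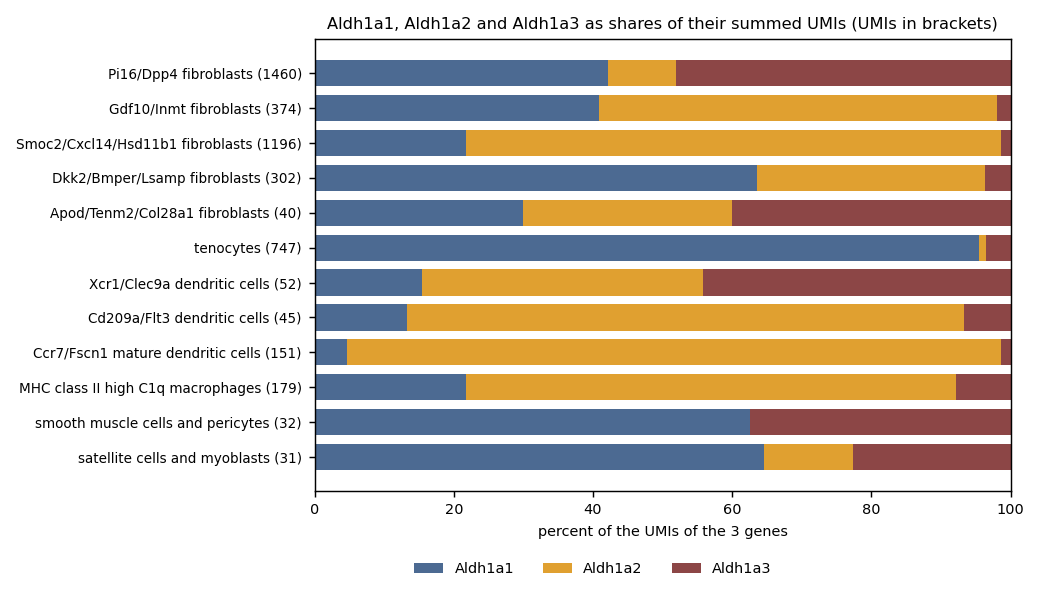
Aldh1a1, Aldh1a2 and Aldh1a3 as percent of the summed UMIs of the 3 genes (horizontal axis) in the classes with at least 30 such UMIs, with the number of UMIs in brackets. Aldh1a1 fills 95.4% of the bar of tenocytes, Aldh1a2 142 of the 151 UMIs of mature dendritic cells, and Aldh1a3 reaches 48.1% in Pi16/Dpp4 fibroblasts.

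The Aldh1a1 and Aldh1a2 genes begin in unlike sequence, and any bearing of this on their levels was not tested. The 250 bases before their RefSeq starts in GRCm38.p6 are shown 5′ to 3′ on the plus strand. These are chr19:20492333-20492582 for Aldh1a1 (the first of its 2 listed starts) and chr9:71215539-71215788 for Aldh1a2.
Aldh1a1: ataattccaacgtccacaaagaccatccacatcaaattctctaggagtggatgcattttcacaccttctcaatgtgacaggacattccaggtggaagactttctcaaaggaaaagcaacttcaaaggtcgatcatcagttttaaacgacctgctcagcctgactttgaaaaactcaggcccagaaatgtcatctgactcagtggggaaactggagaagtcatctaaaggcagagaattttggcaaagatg
Aldh1a2: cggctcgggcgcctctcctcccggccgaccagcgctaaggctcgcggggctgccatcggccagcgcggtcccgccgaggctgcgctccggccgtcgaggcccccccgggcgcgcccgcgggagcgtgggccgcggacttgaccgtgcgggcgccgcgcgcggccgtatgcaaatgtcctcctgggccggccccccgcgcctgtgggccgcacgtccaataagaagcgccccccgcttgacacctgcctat
The stretch of Aldh1a2 was 77.6% G and C with 40 CG pairs, that of Aldh1a1 42.8% with 3, and the median of all 32851 such stretches was 52.4% with 6. Nothing in these stretches is in capitals, because neither contained a 6-base site of the kind that retinoic acid receptors bind, which 38.6% of all stretches held. The stretch before the second Aldh1a1 start, not shown, had 1 such site and was 46.4% G and C. Which start these cells used was not tested. The site was searched on both strands as AGGTCA, with its variant AGTTCA, likewise as GGTTCA, and in the further form GGGTCA. RefSeq starts were at hand for 6 of the 9 genes, and Aldh1a3, Rdh10 and Crabp2 were not among them.

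Rbp4 (chromosome 19, 38116620 to 38125321), which encodes the carrier of retinol in blood, was found almost only in fibroblasts. It had 210.4 CPM (188 to 235) in Gdf10/Inmt, 146 CPM (132 to 161) in Dkk2/Bmper/Lsamp, 92.5 CPM (79.9 to 107) in Smoc2/Cxcl14/Hsd11b1 and 59.7 CPM (53.6 to 66.3) in Pi16/Dpp4 fibroblasts, a series in which no neighbours overlapped. Without the 5 top barcodes of each class the first and second had 133 CPM (115 to 153) and 125 CPM (112 to 139) and did overlap. Apod/Tenm2/Col28a1 fibroblasts had 10.6 CPM from 3 UMIs and tenocytes 9.26 CPM (6.38 to 13.0). Every other class was at 9.09 CPM or below, and Schwann cells, endothelial cells, Ly6c2/Chil3 monocytes and mature dendritic cells had none. The share of barcodes with an Rbp4 UMI was 35.5% in Gdf10/Inmt and 51.0% in Dkk2/Bmper/Lsamp fibroblasts, at median depths of 3604 and 8487 UMIs. At 2000 UMIs each the shares were 20.3% (15.5 to 25.8) and 21.2% (16.3 to 26.7), against 0.22% (0.08 to 0.48) in MHC class II high C1q macrophages.

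Stra6 (chromosome 9, 58063793 to 58154004), the receptor for retinol bound to RBP4, was the rarest member, with 125 UMIs in 47 of the 18528 kept barcodes. Of its 97 gated UMIs, 75 were in the 36 Apod/Tenm2/Col28a1 fibroblasts, a level of 264 CPM (208 to 331), and 14 of the 20 classes had none. In MHC class II high C1q macrophages 0 of 22871913 UMIs were Stra6, which allows up to 0.13 CPM. The Gdf10/Inmt, Smoc2/Cxcl14/Hsd11b1 and Dkk2/Bmper/Lsamp subtypes, where Rbp4 was highest, had no Stra6 UMI at limits of 1.94, 1.44 and 1.13 CPM. Within the Apod/Tenm2/Col28a1 class 12 of 36 barcodes had a UMI, and 8 (22.2%, 10.1 to 39.2) after thinning. One barcode held 40 of the 75 UMIs, and without the 5 top barcodes the class had 51.9 CPM (24.9 to 95.5). That barcode had 14 UMIs of perineurial markers and 2 of Apod among its 22301 UMIs, and without it the class stood at 134 CPM (93.2 to 186). The next barcode had 10 Stra6, 51 Rdh10 and 435 Apod UMIs. The perineurial list as a whole had 222 CPM in this class and 24.0 to 33.5 CPM in the other 4 subtypes, and its part in the Stra6 level was not tested beyond that 1 barcode.

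Crabp1 and Crabp2 encode the cytosolic proteins that bind retinoic acid. Crabp1 (chromosome 9, 54764748 to 54773110) had 65.7 CPM (57.5 to 74.7) in tenocytes, where 85 of 376 barcodes carried a UMI. The next classes were Apod/Tenm2/Col28a1 fibroblasts with 17.6 CPM (5.72 to 41.1) from 5 UMIs and Smoc2/Cxcl14/Hsd11b1 fibroblasts with 8.15 CPM (4.75 to 13.0), whose intervals overlapped, and 10 of the 20 classes had none. After thinning, 9.57% of tenocytes (6.80 to 13.0) and 0.18% of MHC class II high C1q macrophages (0.06 to 0.43) had a Crabp1 UMI. Crabp2 (chromosome 3, 87948693 to 87953372) was low everywhere, and no class stood apart from the next. Its highest value, 21.1 CPM (7.76 to 46.0) in Apod/Tenm2/Col28a1 fibroblasts, rested on 6 UMIs in 2 barcodes, followed by 8.30 CPM (3.34 to 17.1) in Schwann cells and 7.86 CPM (5.22 to 11.4) in tenocytes.

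Cyp26b1 (chromosome 6, 84571414 to 84593908), the enzyme that removes retinoic acid, had its highest level, 43.2 CPM (35.6 to 51.8), in Dkk2/Bmper/Lsamp fibroblasts, and 26.9 CPM (20.9 to 34.0) there without the 5 top barcodes. Schwann cells followed with 24.9 CPM (15.4 to 38.1), an interval that overlapped the first, but 10 of their 21 UMIs were in 1 barcode. Their level was 13.2 CPM (6.60 to 23.7) without it and 0 CPM (0 to 4.75) without the 5 top barcodes. Gdf10/Inmt fibroblasts had 12.3 CPM (7.41 to 19.2), endothelial cells 10.4, Smoc2/Cxcl14/Hsd11b1 fibroblasts 9.11, Pi16/Dpp4 fibroblasts 5.82 (4.03 to 8.13) and tenocytes 3.09 CPM (1.54 to 5.53). The subtype with most Cyp26b1 was thus the one with the lowest summed level of the 3 retinal dehydrogenases among the 5 fibroblast subtypes, and the one with the lowest Rdh10, although in both respects its interval overlapped that of the next subtype (101 to 192 CPM for the sum in Apod/Tenm2/Col28a1, 19.6 to 36.7 CPM for Rdh10 in Gdf10/Inmt fibroblasts). Without the 5 barcodes richest in each gene, Apod/Tenm2/Col28a1 fibroblasts had 9.84, 0 and 11.1 CPM of Aldh1a1, Aldh1a2 and Aldh1a3. Dkk2/Bmper/Lsamp fibroblasts then had 62.6, 20.8 and 1.93 CPM, so that their lowest place in the sum was not kept. A Cyp26b1 UMI was found in 17.6% of Dkk2/Bmper/Lsamp barcodes, in 5.49% (3.03 to 9.04) after thinning, and in 0.22% (0.08 to 0.48) of thinned MHC class II high C1q macrophages.

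Each fibroblast subtype was then compared with the other 4 together, over 11065 genes with at least 50 UMIs in the 5 subtypes. Crabp1 and Crabp2 had fewer than 50 UMIs there and were not compared, which left 7 members. Stra6 reached 50 UMIs there only through the Apod/Tenm2/Col28a1 class, which held 75 of its 77 UMIs, 40 of them in 1 barcode, and without that barcode it would not have been compared. Its ratios therefore restate that peak, and the counts that follow are of the other 6 members. The 5 comparisons share their barcodes, since each subtype is among the others of the next.

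In Smoc2/Cxcl14/Hsd11b1 fibroblasts 2 members were called higher, where 4.42% of all genes were, and 1 lower, where 7.65% were. Those higher were Aldh1a2 with a log2 ratio of 3.28 (3.12 to 3.45) and Rdh10 with 1.81 (1.62 to 2.01), which encode enzymes of both oxidation steps. Aldh1a3 had -3.21 (-4.03 to -2.51), and Stra6 had 0 UMIs.

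In Pi16/Dpp4 fibroblasts 1 member was called higher (4.99% of all genes) and 3 lower (7.89%). Aldh1a3 had a log2 ratio of 3.98 (3.57 to 4.43). Aldh1a2 had -2.95 (-3.21 to -2.70), Cyp26b1 -2.03 (-2.61 to -1.48) and Rbp4 -1.21 (-1.39 to -1.03), and Stra6 had 2 UMIs. Rdh10, at -0.95 (-1.16 to -0.75), was just short of the 2-fold limit.

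In Gdf10/Inmt fibroblasts 1 member was called higher (4.11% of all genes) and 2 lower (7.18%). Rbp4 had a log2 ratio of 1.29 (1.11 to 1.48), but it was 0.74 and not called without the 5 barcodes richest in Rbp4 on each side. Aldh1a3 had -3.92 (-5.24 to -2.87) and Rdh10 -1.53 (-2.02 to -1.09), and Stra6 had 0 UMIs. When the subtypes were assigned by summed marker UMIs the ratio of Rdh10 was -0.38 and that of Rbp4 0.89, neither of them called.

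In Dkk2/Bmper/Lsamp fibroblasts 1 member was called higher (2.83% of all genes) and 3 lower (4.22%). Cyp26b1 had a log2 ratio of 2.49 (2.06 to 2.93). Aldh1a3 had -4.20 (-5.21 to -3.35), Rdh10 -1.88 (-2.28 to -1.51) and Aldh1a2 -1.83 (-2.14 to -1.53), and Stra6 had 0 UMIs. When the subtypes were assigned by summed marker UMIs, Aldh1a2 had -0.91 and was not called. Rbp4, the second highest of the subtypes by level, had 0.71 (0.54 to 0.89) and was not called.

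In Apod/Tenm2/Col28a1 fibroblasts 1 member was called higher (6.48% of all genes) and 3 lower (6.51%). Rdh10 had a log2 ratio of 2.97 (2.70 to 3.23), which was 2.25 and still called without the 5 top barcodes of each side. Stra6 had 75 UMIs here against 2 in the other subtypes, too few to be compared without the 5 top barcodes. Aldh1a1 had -1.25 (-2.21 to -0.44), Aldh1a2 -1.42 (-2.38 to -0.61) and Rbp4 -3.29 (-5.57 to -1.74). The first of these was -0.59 and not called by the mean of per-barcode CPM, and the second -0.57 and not called when subtypes were assigned by summed marker UMIs. That assignment left under 30 barcodes in this class and under 50 UMIs of Stra6 in the 5 subtypes. Aldh1a3, at -0.11 and not called, was -2.28 and called lower without the 5 top barcodes of each side. These 36 barcodes also carried more macrophage marker UMIs than the other subtypes, with a median of 1985 CPM against 154 to 918 CPM, and the part of such transcripts in their levels was not tested.

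**Figure D3:**
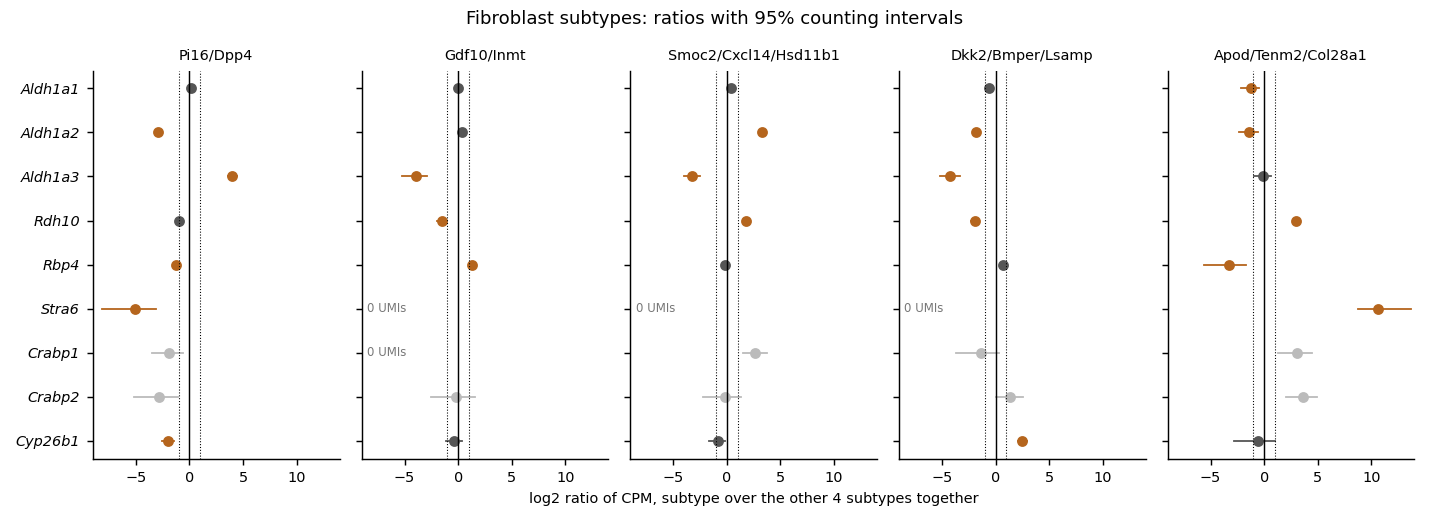
Log2 ratio of the level in each fibroblast subtype over that in the other 4 subtypes together (horizontal axes) for the 9 genes, with 95% counting intervals. Brown points are called, dark grey points are not, pale grey points had fewer than 50 UMIs in all, dotted lines mark 2-fold, and genes without a UMI in the subtype have no point. The points of Stra6 rest on 75 UMIs of the Apod/Tenm2/Col28a1 class. Apart from Stra6, the gene farthest to the right is Aldh1a3 in Pi16/Dpp4, Rbp4 in Gdf10/Inmt, Aldh1a2 in Smoc2/Cxcl14/Hsd11b1 and Cyp26b1 in Dkk2/Bmper/Lsamp fibroblasts, and the point of Rbp4 was not called without the 5 top barcodes.

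Fibroblasts as a whole were also set against tenocytes, the stromal class most like them. Of the 9 members 6 were called higher in fibroblasts and 2 lower, where 12.0% of 13328 genes were higher and 8.46% lower. Among those higher, Aldh1a2, Aldh1a3, Rbp4, Stra6 and Cyp26b1 had 8, 26, 33, 2 and 11 UMIs in tenocytes. These members reached the minimum of 50 UMIs only through fibroblasts, and nothing is read from their part in the count. Without the 5 top barcodes of each side Stra6 had too few UMIs to be compared, which left 5 higher here and 8 against monocytes and macrophages. The higher ones were Aldh1a2 (log2 ratio 5.48, 4.50 to 6.70), Rbp4 (3.50, 3.01 to 4.04), Cyp26b1 (2.66, 1.81 to 3.67), Stra6 (2.52, 0.63 to 5.59, from 88 against 2 UMIs), Aldh1a3 (2.14, 1.58 to 2.76) and Rdh10 (1.57, 1.23 to 1.92). Lower in fibroblasts were Crabp1 (-3.24, -3.53 to -2.96) and Aldh1a1 (-1.15, -1.27 to -1.03), while Crabp2 (-0.85, -1.45 to -0.20) was not called, although by the mean of per-barcode CPM it was -1.02 and called lower. Tenocytes thus had the highest levels of a retinal dehydrogenase gene, Aldh1a1, and of a retinoic acid binding protein gene, Crabp1.

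Whether members occurred in the same barcodes was read in barcodes with at least 5000 UMIs, as a description. In Smoc2/Cxcl14/Hsd11b1 fibroblasts an Rdh10 UMI was present in 66.7% (56.1 to 76.1) of the 93 barcodes with Aldh1a2 and in 31.6% (12.6 to 56.6) of the 19 without, and these intervals overlapped. In tenocytes a Crabp1 UMI was present in 31.0% (24.7 to 37.9) of the 203 barcodes with Aldh1a1 and in 14.7% (7.56 to 24.7) of the 75 without, intervals that were just clear of each other (24.74 against 24.73). In both cases the barcodes with the first gene were also deeper, with medians of 16781 against 12583 and 10961 against 8822 UMIs, and the part of depth in these shares was not tested. In Pi16/Dpp4 fibroblasts Aldh1a1 was found in 73.6% (66.6 to 79.9) of the 182 barcodes with Aldh1a3 and in 66.4% (56.7 to 75.1) of the 110 without, so that most barcodes with Aldh1a3 also held Aldh1a1. The shares with Rbp4 were 54.1% (36.9 to 70.5) and 58.6% (44.9 to 71.4) in Gdf10/Inmt fibroblasts with and without Aldh1a2, and 76.9% (60.7 to 88.9) and 67.9% (58.2 to 76.7) in Dkk2/Bmper/Lsamp fibroblasts with and without Cyp26b1. In these last 3 pairs the intervals overlapped.

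The other genes of retinoid metabolism and signalling were taken from a list of 46, of which 45 were in the matrix and 25 had at least 200 UMIs in the kept barcodes. In fibroblasts against monocytes and macrophages, 7 of 26 compared were called higher and 4 lower, beside 25.3% and 19.2% of all genes. In dendritic cells against monocytes and macrophages 3 of 24 were higher and 7 lower (8.92% and 21.7% of all genes), and in mature against other dendritic cells 3 of 14 were higher and 4 lower (10.6% and 10.5%). In fibroblasts against tenocytes 4 of 22 were higher and 3 lower (12.0% and 8.46%). Among the subtypes, with 22 genes compared in each, 2 were higher and 5 lower in Pi16/Dpp4 (4.99% and 7.89%), 2 and 2 in Gdf10/Inmt (4.11% and 7.18%), 3 and 3 in Smoc2/Cxcl14/Hsd11b1 (4.42% and 7.65%), 1 and 1 in Dkk2/Bmper/Lsamp (2.83% and 4.22%), and 3 and 4 in Apod/Tenm2/Col28a1 fibroblasts (6.48% and 6.51%). Nothing particular to the list is read from these counts.

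Adh1 and Adh7, alcohol dehydrogenases that can oxidise retinol, were largely stromal. Adh1 had 330.2 CPM (306 to 356) in Smoc2/Cxcl14/Hsd11b1 fibroblasts, the subtype with most Aldh1a2, and 34.9 CPM in Pi16/Dpp4 fibroblasts. Its ratio in Smoc2/Cxcl14/Hsd11b1 against the other subtypes was 1.98 on the log2 scale (1.83 to 2.13). Adh7 had 36.3 CPM (31.5 to 41.5) in Pi16/Dpp4 fibroblasts, the subtype with most Aldh1a3, and 6.71 CPM (3.67 to 11.3) in Smoc2/Cxcl14/Hsd11b1 fibroblasts. In Pi16/Dpp4 fibroblasts against the other subtypes its log2 ratio was 1.46 (1.09 to 1.83). Dhrs3, which reduces retinal back to retinol, was lower in fibroblasts than in monocytes and macrophages. It stood at 144 CPM in monocytes and macrophages and 33.5 CPM in fibroblasts, with a log2 ratio of -2.10 (-2.20 to -2.01), and its highest classes were Schwann cells with 183 CPM (155 to 214) and Lyve1/Folr2 macrophages with 181 CPM (163 to 199.8), which overlapped. Within dendritic cells Dhrs3 was higher in the mature ones, by 2.02 on the log2 scale (1.33 to 2.65), and Dhrs9, a dehydrogenase that can act on retinol, had 32.4 CPM (27.7 to 37.7) in Xcr1/Clec9a cells and 5.18 CPM (0.63 to 18.7) in mature cells.

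Receptor genes were found in stromal and myeloid classes alike, each with its own order. Rara had 73.6 CPM (66.4 to 81.4) in Xcr1/Clec9a dendritic cells, 54.1 CPM in monocytes and macrophages and 31.5 CPM in fibroblasts. Rarg had 50.6 CPM (35.0 to 70.7) in endothelial cells, 48.8 CPM (41.9 to 56.7) in tenocytes and 28.0 CPM in fibroblasts. Rarb, itself a known target of retinoic acid, had 43.8 CPM (37.2 to 51.2) in tenocytes, 42.3 CPM (21.8 to 73.8) in Apod/Tenm2/Col28a1 fibroblasts and 39.1 CPM (26.9 to 54.9) in Schwann cells, which overlapped each other. It stood at 5.75 CPM in Smoc2/Cxcl14/Hsd11b1 fibroblasts, which had the highest Aldh1a2, with a ratio of -1.33 on the log2 scale (-2.31 to -0.48) against the other subtypes. Mature dendritic cells had 20.7 CPM (8.94 to 40.8) of Rarb, from 8 UMIs, and monocytes and macrophages 2.03 CPM. Cyp26a1, another target, reached 3.65 CPM (1.94 to 6.24) in tenocytes. Further genes listed as targets had other highest classes. Rarres2 had 982 CPM (957 to 1008) in Pi16/Dpp4 and 980.3 CPM (943 to 1019) in Dkk2/Bmper/Lsamp fibroblasts, Tgm2 216 CPM (182 to 254) in endothelial cells and Rai14 212 CPM (182 to 246) in Schwann cells, where Dhrs3 was also highest. Rarres1 reached 38.7 CPM in Apod/Tenm2/Col28a1 fibroblasts from 11 UMIs, and Stra8 at most 1.54 CPM in any class.

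The 250 bases before the RefSeq start of Rarb are shown because they contain the kind of site searched for in the members. The stretch is chr14:16575477-16575726 in GRCm38.p6, on the minus strand, 5′ to 3′, with the 3 matches to the 6-base sites in capitals.
Rarb: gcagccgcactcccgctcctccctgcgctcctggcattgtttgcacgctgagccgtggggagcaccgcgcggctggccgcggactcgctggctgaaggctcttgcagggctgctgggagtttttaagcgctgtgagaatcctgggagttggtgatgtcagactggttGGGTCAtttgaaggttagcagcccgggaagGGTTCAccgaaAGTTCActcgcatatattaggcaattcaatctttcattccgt
Sites 2 and 3 form a direct repeat with 5 bases between them, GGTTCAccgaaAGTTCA, at chr14:16575513-16575529, which ends 37 bases before the start. Such a repeat, on either strand, was in 29 of all 32851 stretches (0.0883%). None of the 6 members with RefSeq starts had one in its 250 bases, and single sites were found before 1 start each of Aldh1a1 (its second) and Rbp4, a match of letters and not a measured binding site.

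**Figure D4:**
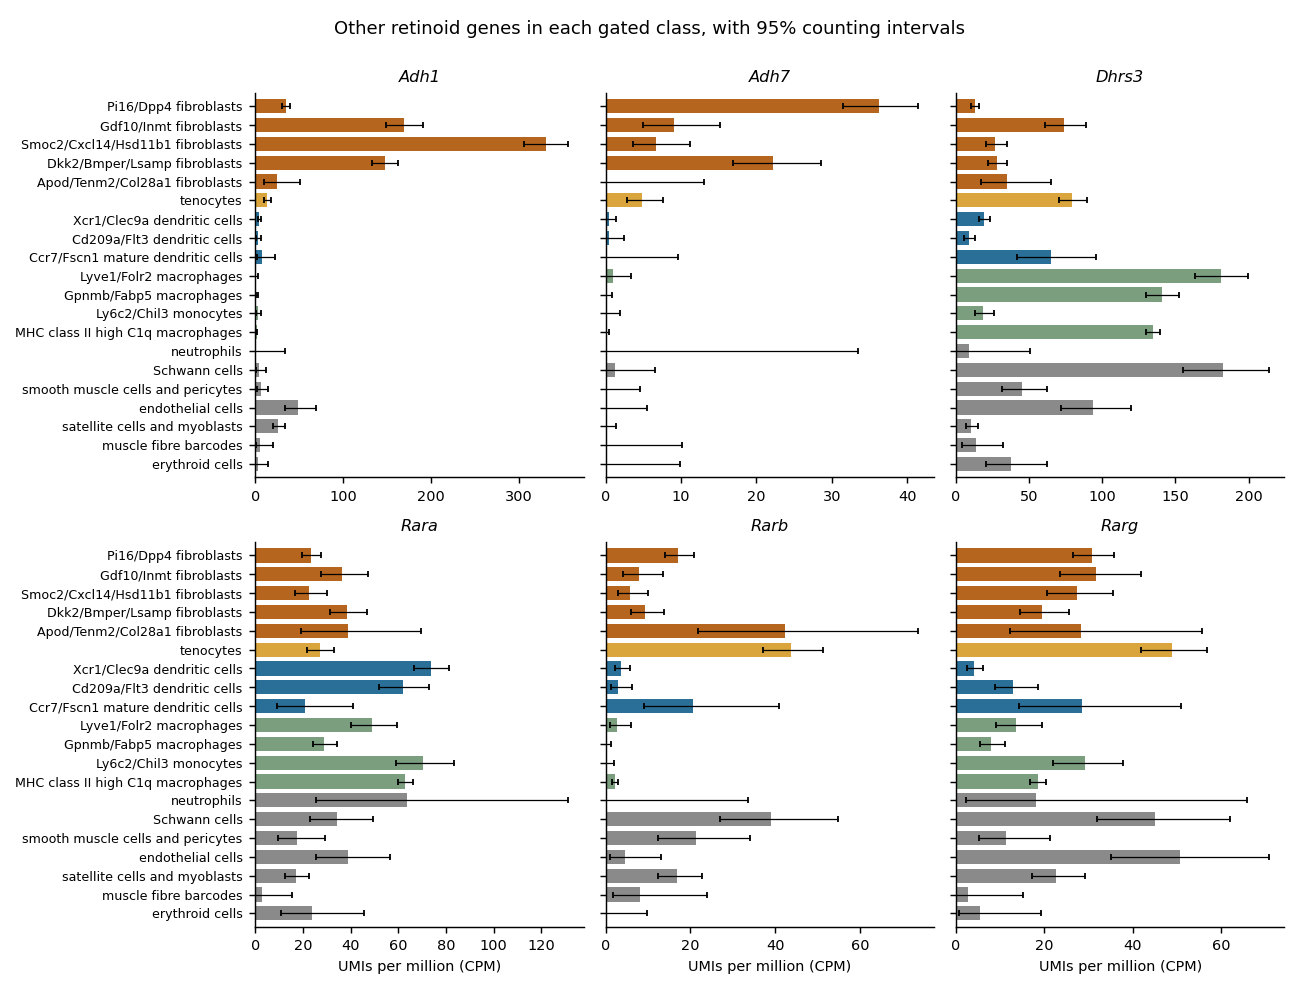
Level of 6 other retinoid genes (horizontal axes, CPM, a separate linear scale from 0 for each gene) in the 20 gated classes, with 95% counting intervals and the same class colours as in the plot of the 9 genes. Adh1 and Adh7 have their long bars in fibroblasts, Dhrs3 in macrophages and Schwann cells, Rara in dendritic and myeloid classes, and Rarb and Rarg in tenocytes and Schwann cells, with endothelial cells also high for Rarg.

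The genes whose levels most resembled those of each member were looked for over the 18 classes with at least 50 barcodes, by Pearson's r of log2(CPM + 1), among genes with at least 200 gated UMIs that were neither markers nor members. All classes come from 1 library and differ in depth. The Apod/Tenm2/Col28a1 fibroblasts, the highest class of Rdh10 and Crabp2, had 36 barcodes and were not among the 18. Aldh1a1 was most like Itgbl1 (r = 0.957), Col1a1 (0.950) and Col1a2 (0.949), and Rbp4 like Arl14epl (0.947), Ces2g (0.928) and Gm12122 (0.927). Rdh10 was followed by Creb3l2 (0.919), Ube4b (0.918) and Capn10 (0.915), Crabp1 by Col8a2 (0.898), Angptl7 (0.881) and Wif1 (0.872), Crabp2 by Tasp1 (0.904), and Cyp26b1 by Atp8b1 (0.883). For Aldh1a2 and Aldh1a3, with their narrow peaks, the nearest genes were less alike, namely Mme (0.807) and Prdm8 (0.801). Stra6 had 97 gated UMIs and was not searched.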

How the data were processed

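The authors deposited raw UMI counts per gene and barcode for the GFP+ library. Their processing notes name Cell Ranger 7.1.0, Seurat 4.30 and mm10, the matrix header names Cell Ranger 8.0.1, and the study names GRCm38 and GRCm39, so the annotation behind the counts is uncertain. Gene positions (9 of 9 members) and starts (6 of 9) are those of RefSeq GRCm38.p6, matched by symbol. Barcodes with at least 2000 UMIs, over 200 genes and under 10% mitochondrial UMIs were kept. A barcode entered a lineage when the summed CPM of its markers was at least 0.2 of the mean of the 50 barcodes richest in them, with at least 3 UMIs of 2 markers and no other lineage above 0.5 of that score. Fibroblasts and tenocytes were not set against each other in this rule. Subtypes were assigned likewise, with each marker scaled on its own. Of the lists 13 of 20 found enough barcodes, and classes of at least 30 barcodes are described. Barcodes with markers of more than 1 lineage were set aside as possible doublets, and Scrublet was an alternative.

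With 1 library there was no test. Levels are summed counts with exact Poisson intervals, ratios have exact conditional intervals and shares exact binomial (Clopper-Pearson) intervals, all 95% and for counting error only. Shares of barcodes were taken after thinning each barcode to 2000 UMIs. A ratio was called at 2-fold or more with an interval clear of no change and at least 50 UMIs on both sides together, and a gene with a count of 0 on 1 side was counted as called where the interval was clear of no change, with its fold bounded by 3 UMIs. All 9 members were named in every class where they mattered, and other retinoid genes by a list, whose values are not all reported here. Members, lists and markers were chosen with earlier results of these data known, and the scoring of the gates was set after the data were seen. Of the GFP- library only the barcode sequences were used. Python 3.11.15 was used with numpy 2.4.6, scipy 1.17.1, pandas 2.3.3, scanpy 1.11.5 and matplotlib 3.10.9.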

Additional observations from a re-analysis of the deposited data

How the results depend on the processing

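The limits are those of 1 library without replicates, of marker gates, and of small classes in which single barcodes hold many UMIs. Of 516 ratios recomputed under settings that could move them 442 stayed inside their interval, 73 left it and 1 reversed. Without the 5 top barcodes 33 ratios stayed inside and 19 left it, and by the mean of per-barcode CPM 48 stayed and 24 left it. Of the levels, 121 left their interval without the 5 top barcodes and 59 stayed inside. The ratio that reversed was Cyp26b1 in dendritic cells against monocytes and macrophages, 1.06 on the log2 scale and -0.66 without the 5 top barcodes of each side. That setting also lowered the members called higher there from 3 to 1. The count was 4 with at least 5000 UMIs per barcode and with Scrublet doublets removed. The 1 member called lower there, Crabp2, held exactly the minimum of 50 UMIs, and the count was 0 with at least 5000 UMIs per barcode, with Scrublet doublets removed, by the mean of per-barcode CPM (where a level of 0 gives no ratio), without the 5 top barcodes and without the barcodes shared with the GFP- library. Without a minimum of UMIs per gene, 3 members in place of 1 were called higher in mature dendritic cells, and 11 in place of 7 over the 5 subtypes (Stra6 counted). Without the 5 top barcodes Stra6 could not be compared anywhere, and the members called over the 5 subtypes were 5 higher and 14 lower in place of 7 and 16. When subtypes were assigned by summed marker UMIs, a setting chosen after seeing the data, 5 of 9 members kept their highest class, and the ratios of Aldh1a2 were -0.91 in Dkk2/Bmper/Lsamp and -0.57 in Apod/Tenm2/Col28a1 fibroblasts, neither called. The Apod/Tenm2/Col28a1 class then had too few barcodes to describe, Stra6 too few UMIs to be called in any subtype, and Aldh1a2 was highest in mature dendritic cells, at 367.7 against 365.8 CPM in Smoc2/Cxcl14/Hsd11b1 fibroblasts. With at least 5000 UMIs per barcode the Apod/Tenm2/Col28a1 class had too few barcodes to describe, and Rdh10 was then highest in Smoc2/Cxcl14/Hsd11b1 fibroblasts, at 161 CPM. Stra6 and Crabp2 were then highest in Schwann cells, at 3.64 and 12.1 CPM. Without the 5 top barcodes Crabp2 was highest in tenocytes, at 4.30 CPM. By the mean of per-barcode CPM, Aldh1a1 in Apod/Tenm2/Col28a1 fibroblasts (-0.59) and Cyp26b1 in dendritic cells (0.44) were not called. Crabp2 was called lower in fibroblasts than in tenocytes (-1.02) under that setting. Cyp26b1 was called lower in Smoc2/Cxcl14/Hsd11b1 fibroblasts (-0.86 as reported) with at least 5000 UMIs (-1.15) and without the 5 top barcodes (-1.29), and in Gdf10/Inmt fibroblasts by summed marker UMIs (-1.44). The causes were not tested. No paired analysis was possible because there was 1 library.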

Other observations

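The members were also present in barcodes that entered no class. In the 2698 barcodes with markers of more than 1 lineage, Aldh1a1 had 37.0 CPM, Aldh1a2 35.3, Rdh10 28.1, Rbp4 23.1 and Cyp26b1 8.41 CPM. In the 2068 barcodes below the lower limit of the score, Aldh1a2 had 31.1 CPM, Rbp4 26.8, Rdh10 25.4, Aldh1a1 24.5, Aldh1a3 10.9 and Cyp26b1 9.95 CPM. Stra6 stood at 2.36 CPM (1.49 to 3.54) in the latter, from 23 UMIs in 15 barcodes, compared with 0.39 CPM (0.13 to 0.90) in the former. Among the 1530 fibroblasts without a subtype, Crabp1 had 12.1 CPM (10.2 to 14.3), above its level in each of the Pi16/Dpp4, Gdf10/Inmt and Dkk2/Bmper/Lsamp subtypes, which held 0 to 1.13 CPM. Rbp7, a retinoid binding protein gene, had 489.6 CPM (438 to 545) in endothelial cells and at most 7.91 CPM in the other classes.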
